A study of Mus musculus with 4 samples.

Results

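Neutrophilic granulocytes fill their granules in a fixed order as they mature, and the 9 genes described here belong to the late part of that order: Ngp, Ltf, Camp, Mmp8, Mmp9, S100a8, S100a9, Pglyrp1 and Chil3. They were chosen by name, as every probe set annotated to 1 of these symbols. Each gene was read by exactly 1 probe set, and none of these was shared with another gene symbol, so the description covers 9 of 12654 probe sets and 9 of 8220 measured genes. Expression was measured on 4 arrays of mouse cells, 1 array per group. The groups are dendritic cell progenitors from bone marrow, dendritic cells differentiated from such progenitors for 7 days or for 10 days, and cells of 10 days that were also stimulated with TNFalpha for 16 hours. For the TNF array the label adds that the progenitors had been amplified in vitro. The labels name no strain, age or genotype and do not say how many cultures or animals lie behind an array. With 1 array per group there is no replicate spread, so no test was possible and no p-value is given.

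In granulocyte precursors, the primary granules are made early and carry myeloperoxidase and serine proteases. Secondary (specific) granules come next, with lactoferrin, cathelicidin and collagenase, and tertiary granules with gelatinase come last, while the S100A8 and S100A9 proteins accumulate in the cytoplasm of maturing cells. Transcription of the late granule genes is known to depend on C/EBP factors, above all C/EBP epsilon. TNF is an inflammatory cytokine that matures dendritic cells, the antigen-presenting cells that these cultures were set up to yield.

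Some genes of the group lie close together. Camp, Ngp and Ltf lie on chromosome 9 at positions 1042, 1051 and 1072 among its 1201 protein-coding genes, in RefSeq's order for GRCm38.p6. S100a8 and S100a9 are neighbours on chromosome 3, at positions 441 and 442 of 983, and Mmp8 lies in a cluster of matrix metalloproteinase genes between Mmp10 and Mmp27. Because most of the genes were lower together on the TNF array, their promoters were read from RefSeq (GRCm38.p6), as the 250 bases before and the 50 bases from the start site. A promoter was matched for 8 of the 9 genes, all except Mmp9. The 4 promoters that hold a C/EBP core, searched as TTGCNNAA on both strands, are shown with that core in capitals. The promoter of Chil3 is shown beside them because Chil3 was the 1 gene not lower with TNF by the 2-fold rule, and it holds no such core:
Ngp, chr9:110419558-110419857, plus strand: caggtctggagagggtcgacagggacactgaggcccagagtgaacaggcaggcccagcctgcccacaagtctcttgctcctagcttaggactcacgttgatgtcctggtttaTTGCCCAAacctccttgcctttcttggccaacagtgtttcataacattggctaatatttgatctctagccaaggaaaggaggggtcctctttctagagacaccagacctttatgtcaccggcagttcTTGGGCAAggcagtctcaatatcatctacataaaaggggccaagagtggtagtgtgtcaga
Ltf, chr9:111019042-111019341, plus strand: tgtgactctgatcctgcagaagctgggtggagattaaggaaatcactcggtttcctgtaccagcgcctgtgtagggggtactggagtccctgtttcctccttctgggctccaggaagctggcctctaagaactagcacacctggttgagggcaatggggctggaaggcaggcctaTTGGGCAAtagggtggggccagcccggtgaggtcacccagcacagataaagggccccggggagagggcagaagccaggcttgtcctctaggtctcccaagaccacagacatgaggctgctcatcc
Mmp8, chr9:7558179-7558478, plus strand: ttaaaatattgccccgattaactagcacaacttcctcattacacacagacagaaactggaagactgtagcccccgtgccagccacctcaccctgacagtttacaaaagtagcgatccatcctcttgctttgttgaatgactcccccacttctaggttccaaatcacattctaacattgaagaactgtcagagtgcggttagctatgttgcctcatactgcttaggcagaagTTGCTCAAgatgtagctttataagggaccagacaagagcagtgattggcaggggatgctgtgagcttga
S100a9, chr3:90695672-90695971, minus strand: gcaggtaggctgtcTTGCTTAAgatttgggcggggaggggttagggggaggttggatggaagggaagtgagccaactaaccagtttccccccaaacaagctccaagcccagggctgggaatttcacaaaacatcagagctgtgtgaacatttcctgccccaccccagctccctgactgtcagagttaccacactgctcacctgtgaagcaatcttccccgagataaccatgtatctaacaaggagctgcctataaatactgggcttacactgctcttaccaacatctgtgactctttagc
Chil3, chr3:106167515-106167814, minus strand: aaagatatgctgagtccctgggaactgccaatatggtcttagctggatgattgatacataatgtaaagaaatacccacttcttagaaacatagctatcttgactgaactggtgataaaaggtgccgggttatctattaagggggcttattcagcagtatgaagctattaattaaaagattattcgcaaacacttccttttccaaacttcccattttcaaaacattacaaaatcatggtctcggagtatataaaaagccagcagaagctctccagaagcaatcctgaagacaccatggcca

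Counted from the start site, the core begins at -138 and -11 in Ngp, at -75 in Ltf, at -19 in Mmp8 and at -236 in S100a9. The core was present in 4 of the 8 promoters of these genes and in 10.8% of all 32851 promoters of the same length. S100a8, Camp and Pglyrp1, which were also lower with TNF, held none of these letters in this window. The Ets and PU.1 core GAGGAA was found in 4 of 8 and in 28.3% of all promoters, the TATA box TATAAA in 4 of 8 and in 13.6%. An NF-kB core, searched as GGGA and TTCC with any 2 bases between them, was found in 1 of 8, that of Pglyrp1, and in 1.47% of all. No match of 1 motif overlapped a match of another. These matches are descriptions of letters, not of binding.

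Levels are given as scaled intensities in units, after each array was brought to a common 75th percentile. For counts and log2 ratios, values below 105 units, the 40th percentile over all arrays, were set to it. Folds of single genes were computed with 428 units, the 60th percentile, as the lowest value, and are written as "at least" where the dimmer array lay under it. As a measure of disagreement between probe sets, log2 ratios from a pair of probe sets of 1 gene were set against each other (the brightest pair, both above 105 units). Their difference had an SD of 0.83 on the log2 scale for day 7 against progenitor (672 genes), 0.85 for day 10 against day 7 (665), 1.08 for day 10 against progenitor (635) and 0.74 for TNF against day 10 (674). The ratios of a pair come from the same arrays, so error shared by a whole array cancels in their difference and is not measured. The SD is also that of a difference between ratios, not of a ratio itself. Each of the 9 genes exceeded 428 units on 1 array or more. Above 428 units were 8 of them in progenitors, 9 at day 7, 9 at day 10 and 6 with TNF.

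**Figure D1:**
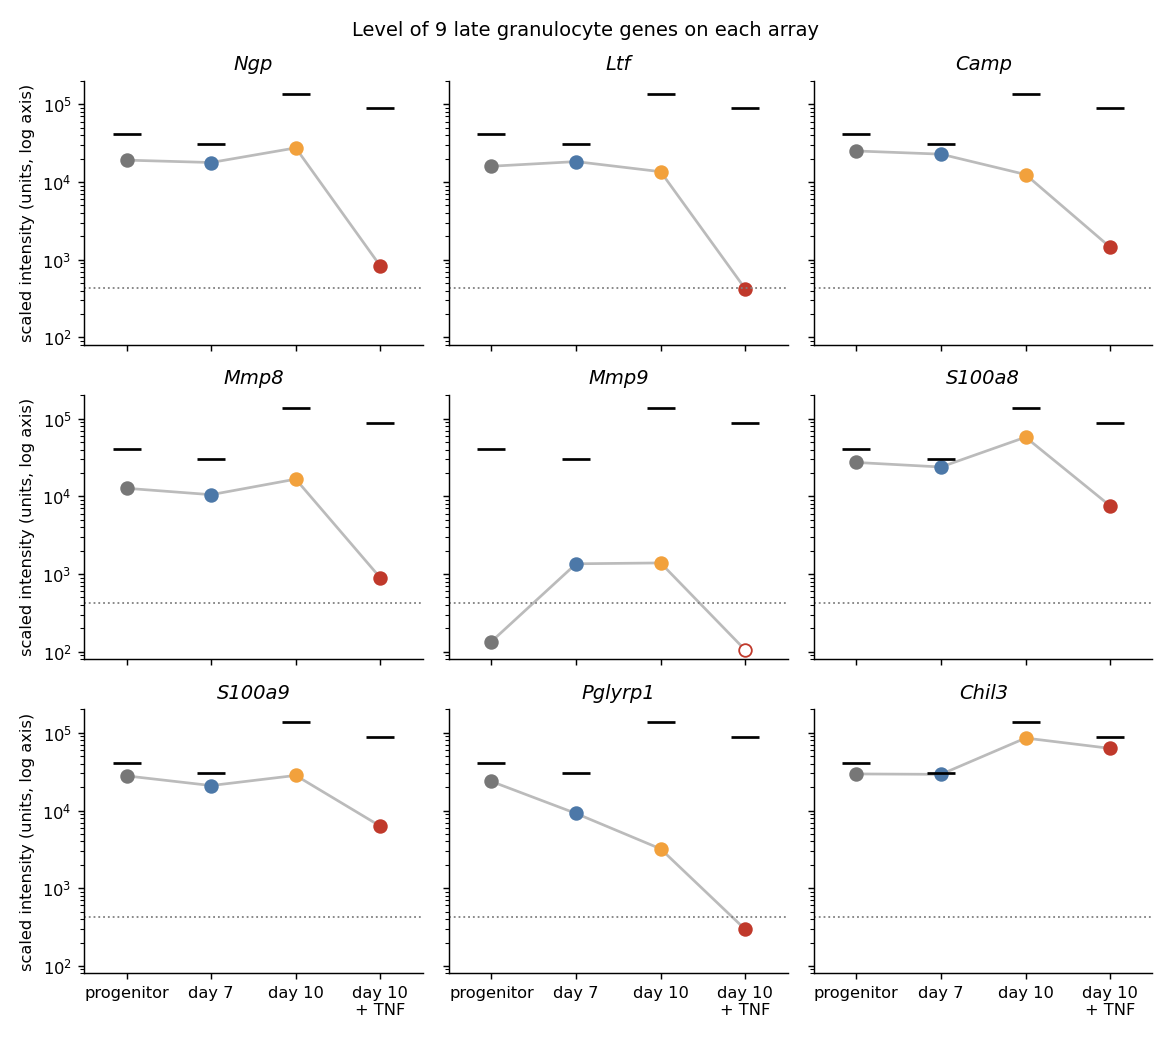
Scaled intensity (units, log axis) of the 9 genes on the 4 arrays, 1 point per array; an open circle is a value under 105 units drawn at 105, the dotted line is 428 units, and the black bar is the brightest probe set of that array. In 8 of the 9 panels the TNF point lies at least 2-fold below the day 10 point, as for Ngp (831 units against 27554), while Chil3 is at 63141 against 85765.

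Among the secondary granule genes, Ngp and Ltf had the largest differences of the group between the TNF array and day 10. Ngp, which encodes neutrophilic granule protein, was at 19177 units in progenitors, 17864 at day 7, 27554 at day 10 and 831 with TNF. Its 3 untreated arrays lay within 1.54-fold of each other and the TNF array was 33.2-fold below day 10. Ltf encodes lactoferrin, an iron-binding protein that withholds iron from bacteria. It was at 15998, 18367, 13610 and 423 units in the same order, so that the TNF array was at least 31.8-fold below day 10. Camp encodes the cathelicidin precursor, from which an antimicrobial peptide is cut. It was at 25153, 22894, 12520 and 1452 units. Camp was thus already 1.83-fold lower at day 10 than at day 7 and a further 8.62-fold lower with TNF. At day 10 Camp was 2.01-fold below its progenitor level, while Ngp and Ltf were within 2-fold of theirs, Ltf only until the arrays were scaled to the spiked controls (log2 ratio -1.18). Under that scaling the median of all genes was -0.81.

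The matrix-degrading enzymes followed different courses before TNF and were both lower with it. Mmp8, the collagenase of neutrophils, was at 12689 units in progenitors, 10495 at day 7, 16640 at day 10 and 893 with TNF, which is 18.6-fold lower than day 10. Mmp9, the gelatinase of tertiary granules, was at 135, 1353, 1388 and -180 units. It was the 1 gene of the group that lay under 428 units in progenitors, and with TNF it lay under 105 units, at least 3.24-fold lower than day 10. Its 2 intermediate values were nearly equal (1.03-fold), and its difference with TNF is a lower bound because the TNF value is background. Among measured inhibitors of these enzymes, Timp1 was at 1166, 794, 878 and 888 units and Timp2 at 242, 715, 1304 and 657. A second Timp2 probe set lay under 105 units on every array. Timp1 therefore did not follow Mmp8 or Mmp9 on the TNF array, where it was within 1.01-fold of day 10.

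S100a8 and S100a9 encode the subunits of calprotectin, a calcium- and zinc-binding protein of the neutrophil and monocyte cytoplasm. S100a8 was at 27286 units in progenitors, 23848 at day 7, 57731 at day 10 and 7537 with TNF. S100a9 was at 27940, 20977, 28322 and 6290 units. Both were thus lower with TNF, by 7.66-fold and 4.5-fold, but unlike the granule genes they stayed bright there, S100a8 within the top 4.67% and S100a9 within the top 5.58% of all probe sets. At day 10 the 2 differed, S100a8 being 2.42-fold above its day 7 level and S100a9 1.35-fold. These 2 log2 ratios, 1.28 and 0.43, differ by about the SD of 0.85 between probe sets of the same gene, and both turn negative under quantile normalization (-0.48 and -0.92). Of their known receptors, Ager, the receptor for advanced glycation end products, lay under 105 units on all 4 arrays, and Tlr4 was not analysed here.

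Pglyrp1, whose product binds bacterial peptidoglycan, took a course of its own. It was at 23685 units in progenitors, 9172 at day 7, 3210 at day 10 and 295 with TNF, so each array lay below the one before it. The steps were 2.58-fold, 2.86-fold and at least 7.5-fold. It was the 1 gene of the 9 that was at least 2-fold lower at day 7 than in progenitors.

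Chil3 encodes Ym1, a chitinase-like lectin made by neutrophil precursors and also by alternatively activated macrophages. It was at 29597 units in progenitors, 29255 at day 7, 85765 at day 10 and 63141 with TNF. The TNF array was only 1.36-fold below day 10, a log2 ratio of -0.44 that is smaller than the SD of 0.74 between probe sets of a gene, and that became 0.06 when the arrays were scaled to spiked controls. Under that scaling the median of all genes was 0.44. Chil3 has a close relative, Chil4, as its neighbour on chromosome 3. Chil4 was not analysed here, and whether the Chil3 probe set also reads it was not tested. Of the other genes of alternative activation, Arg1 lay under 105 units on all 4 arrays. Mrc1, the mannose receptor gene, was at 314, 7033, 9009 and 2714 units, 3.32-fold lower with TNF than at day 10. Ccl17, a chemokine gene, was at -311, 6021, 37488 and 80445 units, 2.15-fold higher with TNF. Il4ra, a receptor subunit gene for interleukin-4, was at 2343, 4860, 7155 and 6238 units, 1.15-fold lower with TNF. Of these 3 genes 1 was thus higher with TNF, 1 lower and 1, like Chil3, within 2-fold.

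**Figure D2:**
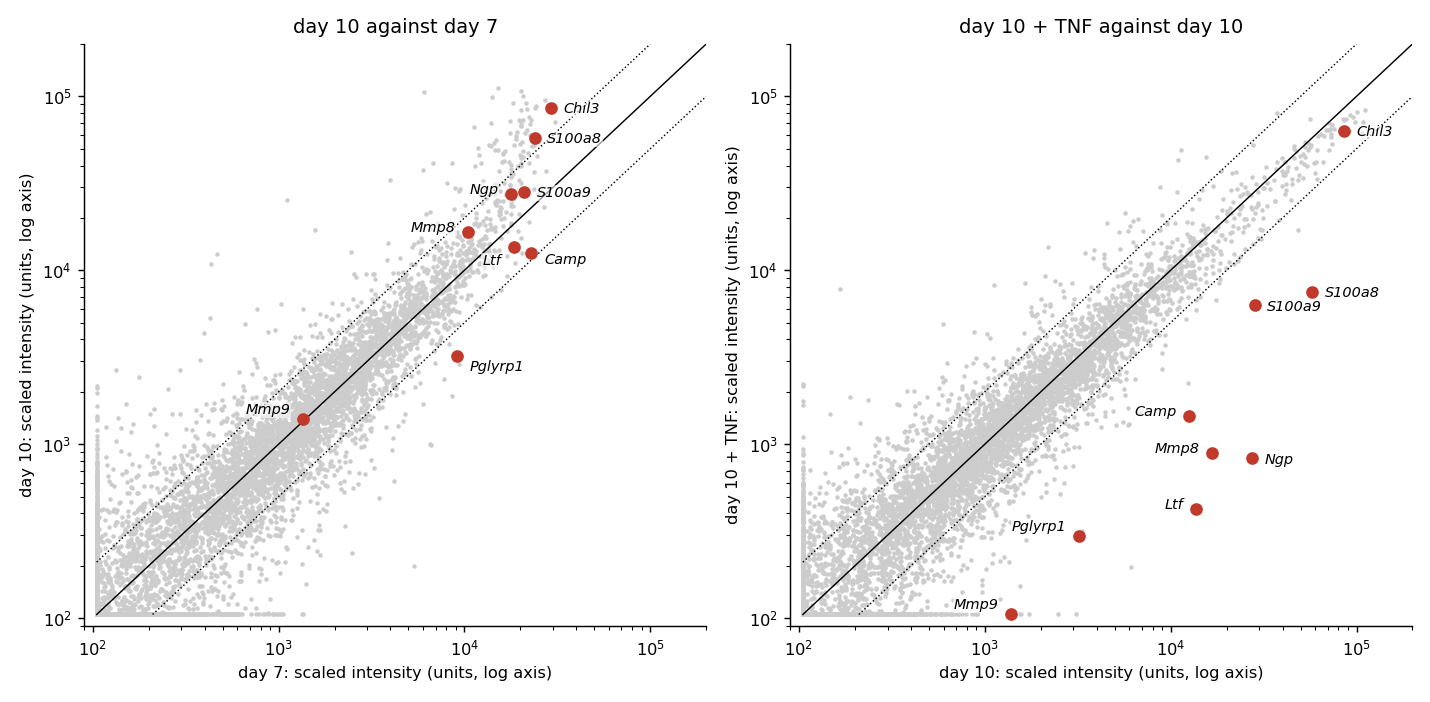
Scaled intensity (units, log axes) of 8220 genes, values under 105 units drawn at 105, for day 10 against day 7 and for day 10 with TNF against day 10; the solid line is equality, the dotted lines are 2-fold, and the 9 late granulocyte genes are red. With TNF 8 of the 9 lie below the lower 2-fold line, and Chil3 lies inside it.

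The comparison of TNF with day 10 asks what 16 hours of the cytokine change in differentiated cells. Of the 9 genes, 8 were at least 2-fold lower and 0 were higher, against 8.76% of 6151 genes lower and 8.84% higher. The median log2 ratio of the 9 was -3.44, and that of all genes was -0.04. With values floored at 105 units, Ngp and Ltf had the 2 lowest log2 ratios of 6151 genes, -5.05 and -5.01. Genes under 105 units with TNF, Mmp9 among them, have ratios that are only bounds, so ranks among all genes are those of floored ratios. In that order Mmp8 was 6 from the lowest, Pglyrp1 12, Camp 18, S100a8 21, S100a9 67 and Chil3 1536. At least 8-fold lower were 20 genes, 0.325% of all, and 6 of these 20 belong to the group. With the floor of 428 units 5 genes, 0.116%, were at least 8-fold lower, and 4 of these 5 belong to the group (Ngp, Ltf, Camp and Mmp8). Only genes at least 8-fold above the floor at day 10 could be called, so these shares are low partly by construction. Pglyrp1, at 3210 units and rank 1415 of 12654 probe sets at day 10, could not be called at the floor of 428 units.

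Other bright genes mostly did not differ in this way. Of 313 genes above 10000 units at day 10, 7 were at least 4-fold lower with TNF, and 6 of these 7 were Ngp, Ltf, Camp, Mmp8, S100a8 and S100a9. The other one was Gstm3, a glutathione transferase gene, named because it completes the count. At least 16-fold lower were 3 of the 313, namely Ngp, Ltf and Mmp8. Probe sets of equal mean level had medians between -0.06 and -0.19 on the log2 scale in the ranges from 2048 units upwards. The 7 genes of the group that fell in those ranges lay below the median of their range by 0.25 for Chil3 to 4.99 for Ngp. In bulk RNA such as this, fewer cells of a type and less RNA per cell cannot be told apart, and the 2 arrays also differed in the level of controls spiked into the samples, which had a median log2 ratio of -0.50.

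Before TNF the genes differed in direction among themselves. At day 7 against progenitor 1 of 9 was at least 2-fold higher (Mmp9, at least 3.16-fold) and 1 lower (Pglyrp1), against 13.4% and 11.9% of 5957 genes. The other 7 had log2 ratios between -0.41 for S100a9 and 0.20 for Ltf, all smaller than the SD of 0.83 between probe sets. That SD leaves out error of whole arrays, so it does not show whether these genes differed between the groups. At day 10 against day 7 2 of 9 were higher (Chil3, 2.93-fold, and S100a8) and 1 lower (Pglyrp1), against 11.2% and 8.44% of 6123 genes. At day 10 against progenitor 3 of 9 were higher (Mmp9, Chil3 and S100a8) and 2 lower (Pglyrp1, 7.38-fold, and Camp), against 20.4% and 16.8% of 6198 genes. The medians of the 9 were -0.14, 0.43 and 0.39 in these 3 comparisons, and those of all genes -0.04, 0.06 and 0.07. The higher values of Chil3 and S100a8 at day 10 depend on the scaling, as described next, and so do the positive medians of the 9.

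The bright end was lower and flatter on the progenitor and day 7 arrays than on both day 10 arrays. The array maximum was 41044 units for progenitors and 30560 for day 7, against 137313 for day 10 and 89121 with TNF. Above 40000 units lay 1, 0, 117 and 101 probe sets in the same order. From the probe set ranked 10 to that ranked 100 the level differed 1.41-fold in progenitors and 1.33-fold at day 7, against 2.12-fold at day 10 and 1.87-fold with TNF. Many of the 9 genes sat on this flat stretch, with 5 in the top 1% of probe sets in progenitors, 6 at day 7, 2 at day 10 and 1 with TNF. At day 7 Chil3 was the 2nd brightest of 12654 probe sets, at 95.7% of the array's maximum, and S100a8 ranked 16. Between the progenitor and day 7 arrays Chil3 differed 1.01-fold and S100a8 1.14-fold.

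**Figure D3:**
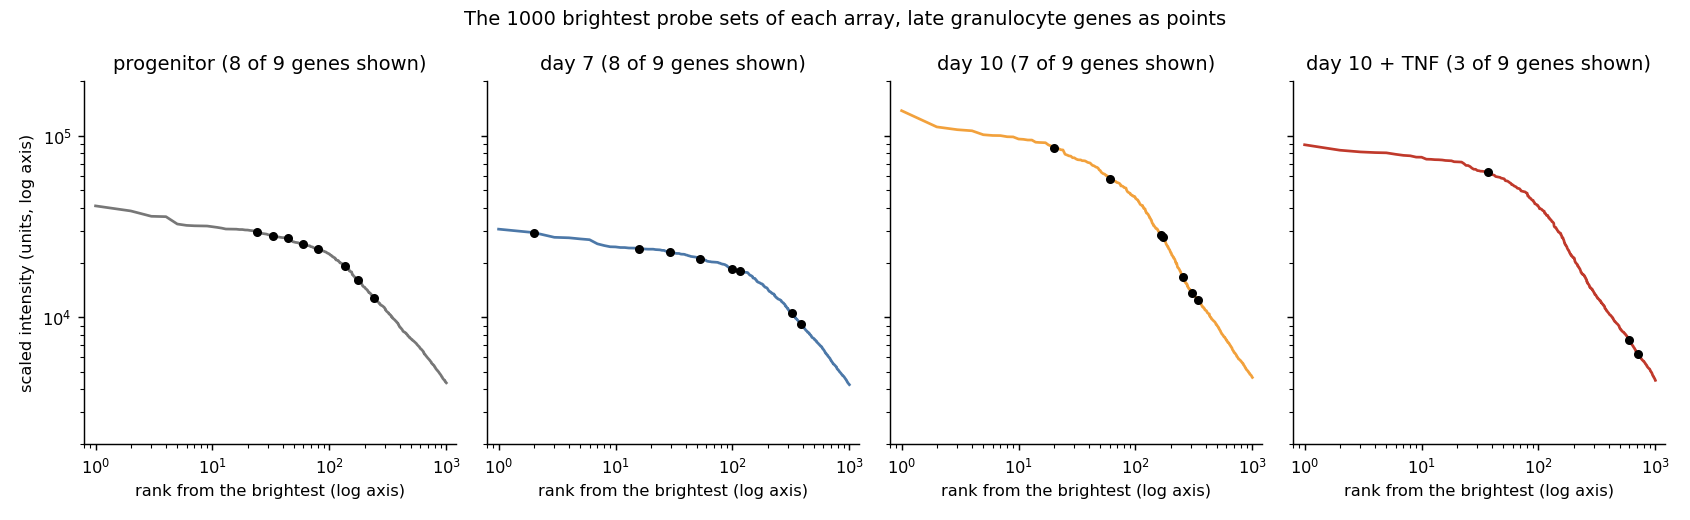
Scaled intensity (units, log axis) of the 1000 brightest probe sets of each array by rank (log axis), with the late granulocyte genes among them as black points. The curves start at 41044 and 30560 units on the progenitor and day 7 arrays, where 8 of the 9 genes are among the 1000 brightest, and on the TNF array 3 are.

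Control values were read beside this. The arrays carry control probe sets for transcripts that are spiked into the sample. Those for Cre had a geometric mean of 25437, 19541, 57892 and 45149 units on the progenitor, day 7, day 10 and TNF arrays. Those for BioB had 1101, 905, 2634 and 1675 units. The ratio of Cre to BioB was 23.1, 21.6, 22.0 and 26.9. On the progenitor and day 7 arrays this ratio was close to that at day 10. On both of these arrays the Cre mean lay below Chil3, S100a8 and S100a9, which at day 7 were at 29255, 23848 and 20977 units. The brighter Cre probe set, at 27366 units in progenitors and 21303 at day 7, lay just above S100a8 (27286) in progenitors and S100a9 at day 7. The ratio therefore does not reach the level of Chil3, and it ends near the levels of S100a8 and S100a9. In progenitors Ngp, Ltf, Camp, Mmp8 and Pglyrp1 lay below the Cre mean, and at day 7 the same genes except Camp did. All 9 spiked probe sets were higher at day 10 than at day 7, by a median log2 ratio of 1.5 (range 1.2 to 1.77). The 6 beta-actin and Gapdh control probe sets, read from the cells' own RNA, were higher by 2.44 (range 2.09 to 3.03). The part of saturation in these values was not tested, and the group and the array cannot be told apart.

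The day 10 ratios were also read against all probe sets of like brightness. The median over 151 probe sets with a mean level of 16384 to 32768 units was 0.94 (log2, day 10 against day 7), and over 68 above 32768 units it was 1.78. Chil3, at 1.55, and S100a8, at 1.28, lay below the 1.78 of their range. Ngp, at 0.63, and S100a9, at 0.43, lay below 0.94, and Camp, at -0.87, lay 1.81 below it. Of the 8 genes in ranges from 2048 units upwards, 7 lay below the median of their range, the exception being Mmp8, at 0.66 against 0.26. The ranges were set by the mean of the 2 arrays, and the brightest day 7 value was 30560 units. Every probe set with a mean above 32768 units was therefore higher at day 10 by construction. The medians of the upper ranges are thus partly fixed by the ranges, and nothing about the group is concluded from lying below them. After quantile normalization, which gives every array the same distribution of values, the day 10 to day 7 log2 ratio was -0.31 for Chil3, -0.48 for S100a8, -0.46 for Ngp, -0.92 for S100a9, -1.38 for Ltf and -2.08 for Camp. The signs of Chil3, S100a8, Ngp and S100a9 thus turned, while those of Camp, Ltf and Pglyrp1 (-1.72) did not. With scaling to the spiked controls, Ngp was at -0.76, S100a9 at -0.96, Mmp8 at -0.72 and Chil3 at 0.16. That scaling put the median of all genes at -1.25, with 63.9% of genes at least 2-fold lower. Each of these values lay above that median, as did S100a8 at -0.11. Pglyrp1 (-2.9), Camp (-2.26), Ltf (-1.82) and Mmp9 (-1.35) lay below it. Rank within an array does not depend on its scaling: from day 7 to day 10 Camp moved from rank 29 to 341, Ltf from 99 to 306, Pglyrp1 from 384 to 1415, Ngp from 116 to 172 and Chil3 from 2 to 20, while Mmp8 moved from 323 to 255. Quantile normalization uses ranks alone, so these moves repeat its ratios and are no separate support. On the flat bright end of the day 7 array, small differences in level also change ranks.

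**Figure D4:**
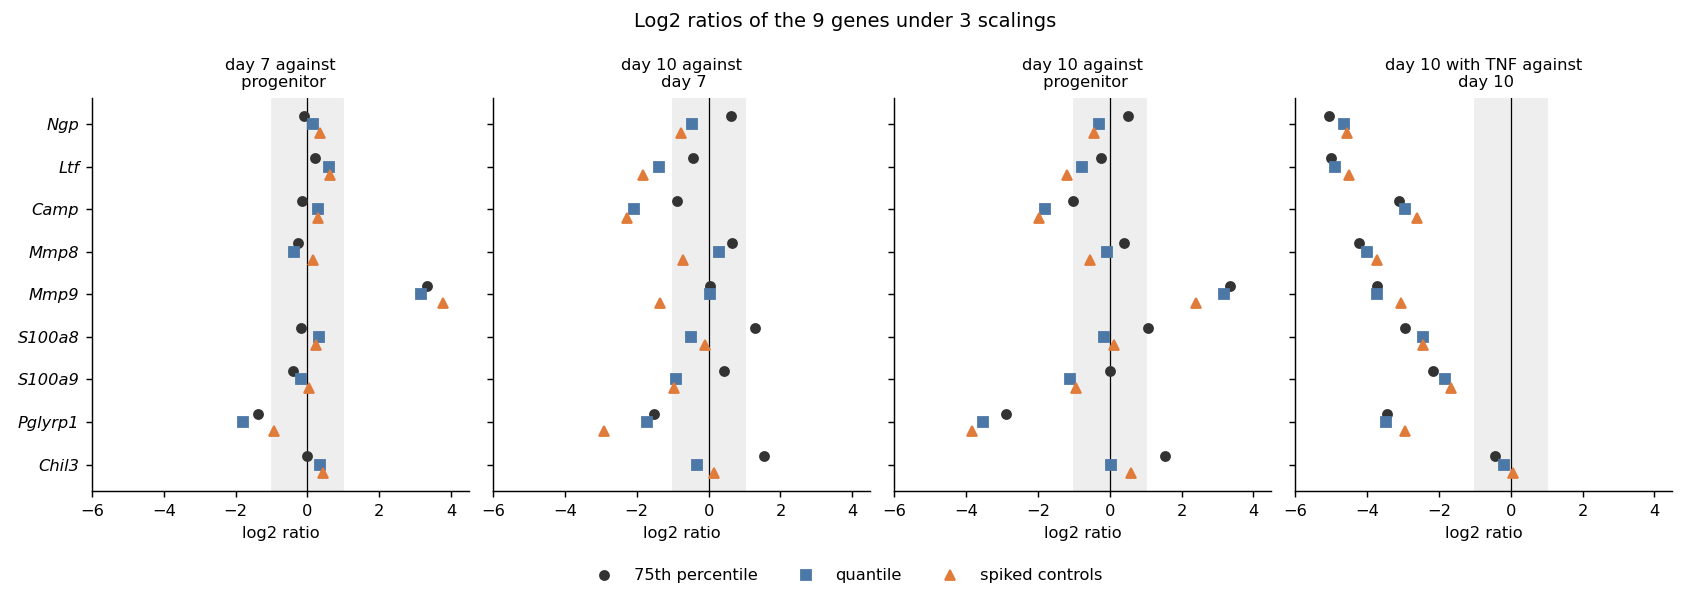
Log2 ratios of the 9 genes in 4 comparisons, with the arrays scaled to a common 75th percentile (circles), quantile normalized (squares) or scaled to the spiked controls (triangles); the grey band is less than 2-fold. With TNF 8 genes stay left of the band under all 3 scalings, while for day 10 against day 7 S100a8 and Chil3 leave the band only under the 75th percentile scaling.

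The differences on the TNF array changed less with the scaling. The log2 ratios against day 10 after quantile normalization were -4.64 for Ngp, -4.88 for Ltf, -4.0 for Mmp8, -2.94 for Camp, -2.43 for S100a8 and -1.82 for S100a9. Scaling to the spiked controls gave -4.55, -4.51, -3.72, -2.61, -2.44 and -1.67. The count of 8 lower genes was the same under all 6 alternatives tried. Ranks moved from 172 to 3714 for Ngp, from 306 to 5141 for Ltf, from 255 to 3565 for Mmp8 and from 341 to 2656 for Camp. Chil3 moved from 20 to 37.

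Other genes of late granulocytes, a list of 41 of which 22 were measured, were set beside the 9. Of 21 above 105 units, 8 were at least 2-fold lower and 0 higher, with a median log2 ratio of -0.53, beside 8.76% and 8.84% of all genes. With scaling to the spiked controls 6 were lower and 3 higher, against 3.32% lower and 17.7% higher among all genes. By a 3-fold rule 5 were lower, against 2.88% of all genes. At the floor of 428 units 6 of 20 were lower and 0 higher, against 5.15% lower and 4.71% higher among 4308 genes. The difference from the 9 genes was not tested. Il1r2, a decoy receptor for interleukin-1, was at 24795, 6954, 5536 and 1346 units and 4.11-fold lower with TNF, while a second, dimmer probe set had 644 units at day 10 and 651 after TNF. Ltb4r1, a leukotriene B4 receptor gene, was at 5025, 3221, 5101 and 1284 units and 3.97-fold lower. Csf3r, the receptor for the granulocyte growth factor G-CSF, was at 1939, 7916, 5886 and 1615 units and 3.64-fold lower by its brightest probe set. Its other probe sets disagreed, being at 1951, 1682, 2194 and 2042 units for one and 1598, 3013, 2359 and 262 for the other. Padi4, whose enzyme citrullinates histones in neutrophils, had 2786, 1767, 1547 and 153 units, and was lower by at least 3.61-fold. By their brightest probe sets, Il1r2 was highest in progenitors and Csf3r at day 7.

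Further genes of that list differed in their courses. Lyz2, the lysozyme gene of neutrophils and macrophages, was at 9479, 20706, 72829 and 58007 units. Cyba, a subunit gene of the NADPH oxidase, was at 24740, 20089, 67138 and 59024. Neither was 2-fold lower with TNF, and both are also made by macrophages and dendritic cells. Hp, the haptoglobin gene, was at 27530, 4667, 1356 and 473 units, and so resembled Pglyrp1 in being lower on each array. Ly6g, a marker of mature granulocytes, was at 1227, 1133, 808 and 367 units, at least 1.89-fold lower with TNF. Lcn2, which encodes a secondary granule protein and a partner of MMP-9, had 1 probe set of its own that lay under 0 on every array and a second one, shared within a gene family, at 614, 600, 606 and 528 units. No change is read from Lcn2, which entered the list's counts and median through the second probe set, as a gene within 2-fold.

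Primary granule genes followed another course. Elane, the neutrophil elastase gene, had 27938 units in progenitors, 6501 at day 7, 999 at day 10 and 636 with TNF. Mpo, which encodes myeloperoxidase, was at 26660, 5381, 200 and -235 units. Of the 4 measured (Mpo, Elane, Prtn3 and Ctsg), 4 were at least 2-fold lower at day 7 than in progenitors, beside 11.9% of all genes. All 4 were lower again by day 10, beside 8.44%. Their medians were -2.6 and -2.99 on the log2 scale, against -0.14 and 0.43 for the 9 late genes. The median of 0.43 depends on the scaling. It became -0.48 after quantile normalization and -0.96 with scaling to the spiked controls, where the median of all genes was -1.25. With TNF 1 of the 4 was 2-fold lower by the floor of 105 units, beside 8.76% of all genes. By the floor of 428 units 0 of 2 were lower, beside 5.15%. The median with TNF was -0.79 for the 4 primary granule genes, against -3.44 for the late genes. These medians are not on equal terms: at day 10 Mpo was at 200 units and Ctsg at 157, so the floor limits their log2 ratios to -0.93 and -0.58. The primary granule genes had a summed level of 97018 units in progenitors, 16761 at day 7, 1845 at day 10 and 865 with TNF. The summed level of the 9 late genes was 181659, 154225, 246740 and 80862 units, and without Chil3 152061, 124970, 160975 and 17721. These sums also depend on the scaling, and the bright end as a whole was higher at day 10, so no rise of the late genes is read from them. With 1 array per group the difference between the lists could not be tested.

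**Figure D5:**
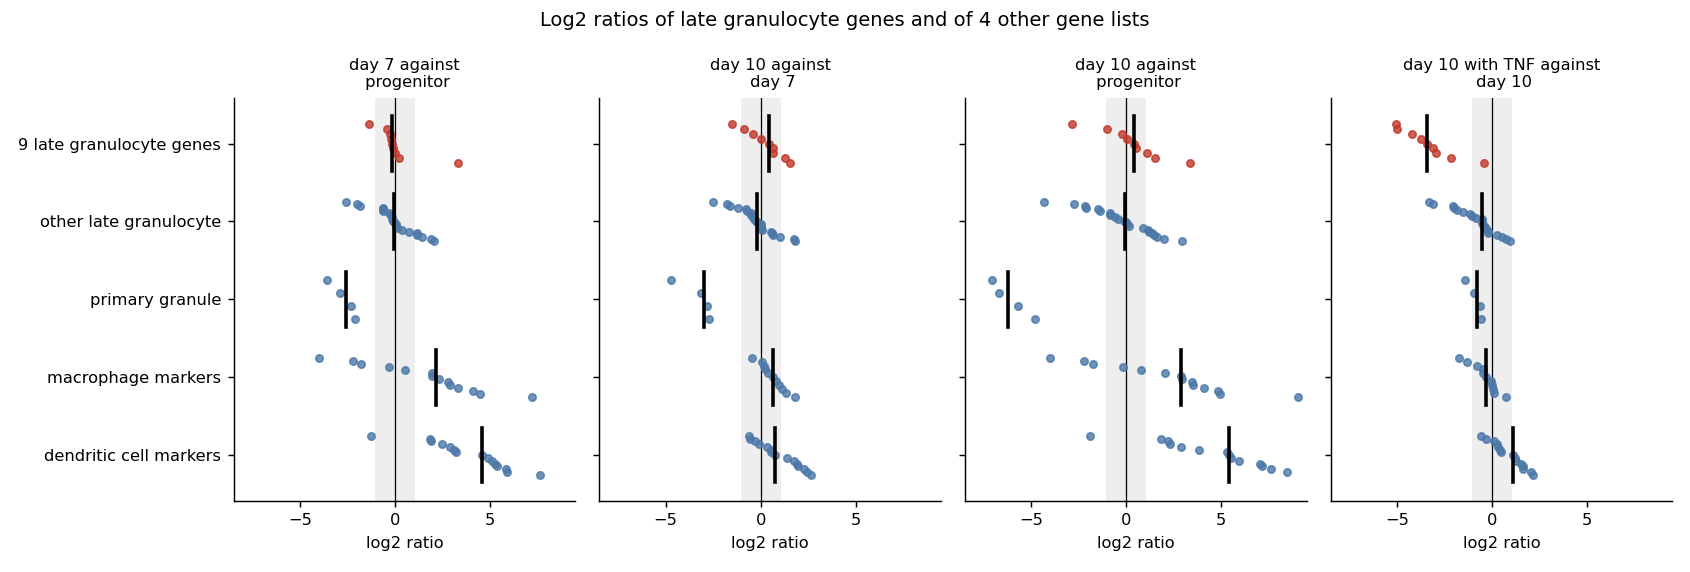
Log2 ratios of the members of 5 gene lists in 4 comparisons, 1 point per gene measured above 105 units on either array; the black bar is the list's median and the grey band is less than 2-fold. The late granulocyte genes have medians of -0.14, 0.43, 0.39 and -3.44, and the primary granule genes -2.6, -2.99, -6.22 and -0.79.

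Of 10 measured regulators of granulocyte genes, 9 lay above 428 units in progenitors, 8 at day 7, 6 at day 10 and 6 with TNF. Gfi1, a repressor needed for neutrophil formation, was at 4420, 433, 181 and 0 units. Myb, a progenitor factor, was at 8955, 1104, 248 and 60, so both were near background by day 10, when most of the 9 late genes were bright. Cebpb, a C/EBP factor linked to granulopoiesis under stress, was at 15716, 26729, 23034 and 11258 units, 2.05-fold lower with TNF than at day 10. Cebpa was at 8615, 6326, 9700 and 7259 units. Spi1, the gene of PU.1, was at 8219, 12494, 13572 and 9064 units. Cebpd lay under 0 on all 4 arrays, and Cebpe was not analysed here. Irf8, a factor of monocyte and dendritic cell fate, was at 587, 3774, 5314 and 13312 units, 2.5-fold higher with TNF. Of the 9 regulators above 105 units 1 was higher and 2 lower with TNF, and of 6 at the floor of 428 units 1 was higher and 1 lower. The shares over all genes were 8.84% higher and 8.76% lower at 105 units, and 4.71% and 5.15% at 428.

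Markers of other cell types moved with the same comparison. Of 15 dendritic cell markers above 105 units 8 were at least 2-fold higher with TNF and 0 lower, beside 8.84% and 8.76% of all genes, and the list's summed level was 7829 units in progenitors, 111190 at day 7, 407760 at day 10 and 504992 with TNF. Zbtb46 lay under 105 units on all 4 arrays. Of 11 macrophage markers 0 were higher and 2 lower, with summed levels of 14398, 78666, 163680 and 122549 units and with the brightest probe sets of C1qa, C1qb and C1qc under 105 units on the 3 differentiated arrays. A second C1qb probe set had 153, 115 and 15 units on these arrays. The 5 measured eosinophil markers had summed levels of 2578, 8025, 12075 and 4669 units. Prg2 and Epx, which encode eosinophil granule proteins, were 2.67-fold and 2.35-fold lower with TNF by their brightest probe sets. A second Prg2 probe set went the other way, at 744 units at day 10 and 1253 with TNF. Il5ra was under 105 units on all 4 arrays. Of 7 mast cell and basophil markers 0 were higher and 2 lower by the floor of 105 units, and 0 of 4 were lower by that of 428. Of 2 erythroid markers neither differed 2-fold. The part of a change in cell make-up in the lower late granulocyte values was not tested.

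The genes most like the group in pattern were sought by distance. The median profile of the 9 genes, each centred on its own mean log2 level, was 0.93 in progenitors, 0.92 at day 7, 1.09 at day 10 and -2.8 with TNF. Of 4728 other genes that exceeded 428 units anywhere, the 5 nearest over the 4 arrays were Tmem115, Gpaa1, Gabbr1, Tspan4 and Padi4, at distances of 0.528 to 0.729 on the log2 scale. Among the group itself Mmp8 was nearer, at 0.371, and Ngp and Camp lay at 0.847 and 0.905. Mmp9, Pglyrp1 and Chil3 were farther, at 2.86, 2.37 and 3.95, and 3664 other genes were nearer to the profile than Chil3. The 5 nearest genes had 48 to 153 units on the TNF array and 857 to 1734 at day 10, and 3 of them (Gpaa1, Gabbr1 and Tspan4) lay under 105 units with TNF, so that their profiles end at the floor. With 4 arrays such likeness is a description.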

How the data were processed

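Total RNA of 4 samples was hybridised to 1 Affymetrix mouse array each, 1 per group. The authors deposited 1 linear intensity per probe set and array, and the software, background method and scaling are not stated in the labels. On each array 22.8% to 24.3% of the deposited intensities lie below 0. Gene symbols came from the platform's annotation, which gives 10298 of 12654 probe sets 1 symbol, 363 several and 1993 none, and symbols were updated through Entrez numbers. For each of 8220 genes the brightest probe set by mean was used. Arrays were scaled to a common 75th percentile (factors 0.962 to 1.05), floored at 105 units and converted to log2, with a second floor at 428 units. The genes and the 10 other lists were chosen with earlier results of these data known. From the lists, up to 4 genes with the largest ratio past 2-fold were named per comparison; Ly6g, Lcn2, Cebpa, Cebpd, Spi1, Timp1, Ager, Arg1 and Gstm3 were named after their values were seen. The code that counts genes past 2-fold was checked on simulated arrays with known folds, which says nothing of replicate error. Alternatives were the values as deposited, quantile normalization, scaling to 9 spiked controls, the floor of 428 units, a 3-fold rule and the mean over probe sets. Python 3.11.15, numpy 2.4.6 and pandas 2.3.3 were used. The number of arrays limits the precision.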

Additional observations from a re-analysis of the deposited data

How the results depend on the processing

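The count of 8 late granulocyte genes at least 2-fold lower with TNF, and of 0 higher, was the same under all 6 alternatives: values as deposited, quantile normalization, scaling to the spiked controls, the floor of 428 units, a 3-fold rule and the mean over probe sets. Not all of these could move it. Each of the genes has 1 probe set, so the mean over probe sets left their ratios identical by construction. The values as deposited differ from the main ones only by factors of 0.962 to 1.05 per array. Of 45 log2 ratios of single genes in that comparison, 44 moved by less than the SD of 0.74 between probe sets. The exception was Mmp9, at -1.7 with the floor of 428 units, which by construction shortens the ratio of a gene under it. The SD of 0.74 leaves out error shared by a whole array, so it cannot judge shifts between scalings. For day 10 against day 7 the number of higher genes was 2 and became 0 with quantile normalization, spiked controls or a 3-fold rule; the number of lower genes was 1 and became 3, 4 and 0. For day 10 against progenitor the number higher was 3 and became 1 under the same 3 settings and 2 as deposited; the number lower was 2 and became 3 with quantile normalization or spiked controls and 1 with the 3-fold rule. For day 7 against progenitor the number lower was 1 and became 0 with spiked controls or the 3-fold rule. Among ratios past 2-fold, that of S100a8 reversed to -0.48 (quantile) and -0.11 (spiked controls) for day 10 against day 7 and to -0.17 (quantile) against progenitor, and that of Chil3 to -0.31 (quantile) for day 10 against day 7. Smaller ratios for day 10 against day 7 also changed sign. Ngp went to -0.46 (quantile) and -0.76 (spiked controls), S100a9 to -0.92 and -0.96, and Mmp8 to -0.72 with spiked controls. Mmp9 went from 0.04 to -1.35 with spiked controls. Against progenitor, Ngp, Mmp8 and S100a9 turned negative under both scalings. Apart from the construction of the 3-fold rule, the cause was not tested. Scaling to the spiked controls moved the median of all genes to 0.37, -1.25, -0.81 and 0.44 in the 4 comparisons, and left 2.15% of genes higher and 63.9% lower at day 10 against day 7. With 1 array per group no array could be left out, and no paired analysis was possible because no group has a second sample. Values under 428 units lie near background, so folds against them are lower bounds.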
